A study of Saccharomyces cerevisiae with 12 samples.

Results

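The ergosterol pathway of Saccharomyces cerevisiae was followed in 2 strains through 34 genes, chosen by their role, with earlier results of these data known. They were 9 genes of the mevalonate section, 3 of the squalene and lanosterol section, 11 of the late sterol section, 2 electron donors, 4 genes of regulation and uptake, and 5 of storage and hydrolysis. All 34 had a probe on the arrays, among 6214 genes in all. For 33 of them each strain and time had values on at least 2 arrays, and these 33 were tested among 5474 genes. The exception was UPC2 (YDR213W), a zinc cluster activator of sterol genes, which had a value on 1 array only, 0.84 on ITD00185 96 h replicate 3. Strain ITD00185, taken from the series title to be the agave strain, and strain T73, a wine yeast, each fermented synthetic agave must at 28 ºC and were sampled after 48 h and after 96 h. Each of the 4 groups of strain and time had 3 arrays, which the labels call biological replicates. On every array RNA of the strain carried Cy5 and a sample mix carried Cy3, the mix being labelled with the time of that array, and the sources used here do not give its composition. A level below is the deposited log ratio of strain to mix, with the base read as 2 though not stated. Fold sizes depend on that reading. That the ratio is strain over mix is likely from the order of channels and dyes, though not stated, and the sign of each value depends on it. A difference is ITD00185 minus T73 within a time, so that a mix shared by the arrays of that time falls out, and it is given ± the standard error of a limma fit to all 12 arrays.

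Ergosterol is the main sterol of the yeast plasma membrane, where it sets fluidity and permeability and bears on tolerance of ethanol. Acetyl-CoA is built up through mevalonate to farnesyl pyrophosphate, which is joined to squalene, closed to lanosterol and then trimmed and desaturated to ergosterol. Several late reactions need molecular oxygen and heme, so that yeast in anaerobic fermentation cannot complete the pathway and takes up sterol instead. The activators Upc2 and Ecm22 raise many ERG genes when sterol runs low, and surplus sterol is stored as steryl esters.

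The arrays gave 5657 to 6116 values each, and those of the strains correlated positively in every pair. Replicate 2 of ITD00185 at 48 h was unlike the other arrays of its group. Its correlation across genes was 0.42 and 0.51 with replicates 1 and 3 of its own group, against 0.82 to 0.86 with the 3 arrays of ITD00185 at 96 h. With the T73 arrays, too, this replicate correlated more highly than with its own group, at 0.64 to 0.72 for 48 h and 0.54 to 0.66 for 96 h. Among 32 sterol genes with all 3 values it was the lowest of its group for 22 and the highest for 6. The spread of the arrays also differed, with a standard deviation over tested genes of 1.02 to 1.43 for ITD00185 at 48 h, 1.73 to 2.03 for T73 at 48 h, 1.37 to 1.61 for ITD00185 at 96 h and 1.08 to 1.21 for T73 at 96 h. The median over the 33 sterol genes of the standard deviation between replicates was 0.73, 0.41, 0.31 and 0.21 in the same order.

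**Figure D1:**
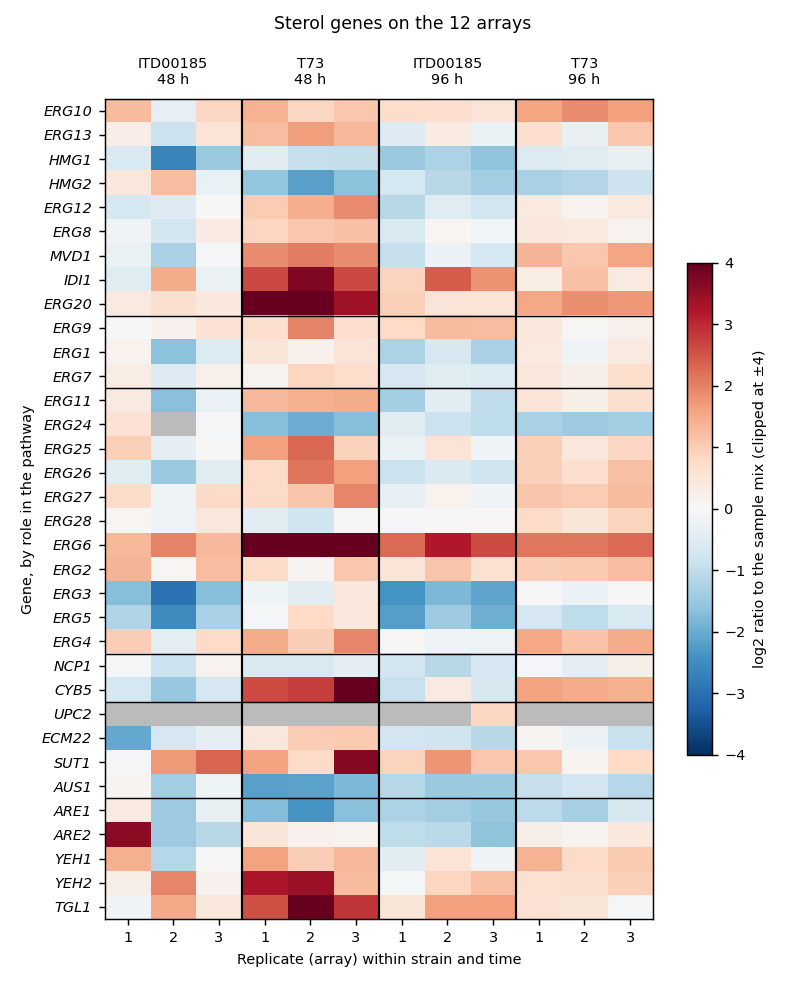
Log2 ratio to the sample mix for the 34 sterol genes (rows, by role) on the 12 arrays (columns, by strain, time and replicate), with colour clipped at 4 in size and grey for no value. ERG20, ERG6 and CYB5 were above 2.5 on all 3 arrays of T73 at 48 h and at most 1.98 on the ITD00185 arrays of that time, while HMG2, ERG24, AUS1 and ARE1 were below -1.5 on all 3 arrays of T73 at 48 h.

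At 48 h most sterol genes were lower in ITD00185 than in T73. Of 33 tested, 17 were lower, 4 were higher and 12 did not pass an adjusted p of 0.05, while 39.5% of all genes tested passed in either direction. The lower share was 51.5% of the sterol genes, against 26.7% of all genes tested. The higher share was 12.1%, against 12.9%. The median difference was -1.21 over the sterol genes and -0.32 over all genes, so the sterol genes lay below a table that was itself shifted. With each array centred on its median those medians were -0.94 and -0.05, and 15 sterol genes were lower (45.5%, against 20.5% of all genes). With arrays scaled to one spread 11 were lower and 3 higher (33.3% lower, against 13.1%), and with the arrays of 96 h left out of the model 11 were lower and 2 higher (33.3% lower, against 9.72%). Without ITD00185 48 h replicate 2, 14 were lower and 4 higher, and the lower share of 42.4% stood against 32.0% of all genes. Of 32 sterol genes with all 6 values, 20 had the strains fully apart, array by array. ITD00185 was below T73 in 17 of the 32, against 1279 of 4900 genes with all 6 values (26.1%). It was above T73 in 3 of the 32, against 719 of 4900 (14.7%).

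At 96 h the sterol genes that passed were lower in ITD00185 throughout. There were 11 lower and 0 higher among 33, and the other 22 did not pass, beside 22.5% of all genes called in either direction. The lower share was 33.3%, against 10.5% of all genes. Of all genes 12% were higher. The median difference was -0.79 over the sterol genes and -0.01 over all genes. The arrays did not overlap for 21 of 33 sterol genes, a total to be read by direction since non-overlap was common among all genes. ITD00185 was below T73 in 19 of the 33, against 1640 of 5518 genes with all 6 values (29.7%). It was above T73 in 2 of the 33, against 1538 of 5518 (27.9%). The number that passed depended on single arrays, whereas the median stayed between -0.97 and -0.77. It was 4, 5 and 3 without replicates 1, 2 and 3 of ITD00185 at 96 h. Those shares were 12.1%, 15.2% and 9.09%, against 6.87%, 5.15% and 5.64% of all genes. Without the replicates of T73 at 96 h it was 3, 6 and 2 (9.09%, 18.2% and 6.06%, against 4.82%, 7.03% and 5.22%). Without ITD00185 48 h replicate 3 it was 7 (21.2%, against 9.61%). With the arrays of 48 h left out of the model 18 were lower and 1 higher, beside 22.2% and 22.9% of all genes. With weights for arrays 24 were lower and 5 higher, beside 31.9% and 32.8% of all genes.

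**Figure D2:**
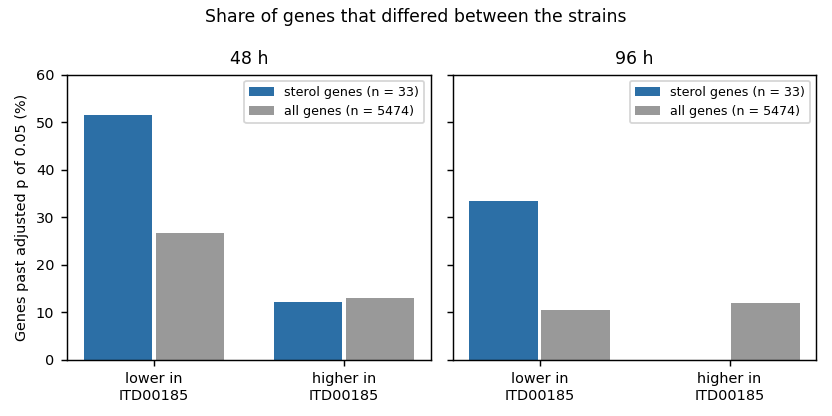
Percentage of genes past an adjusted p of 0.05 in either direction at 48 h (left) and 96 h (right), for the 33 sterol genes (blue) and all 5474 genes (grey). The lower bars of the sterol genes stand at 51.5% and 33.3%, against 26.7% and 10.5% for all genes.

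At both times 8 sterol genes were lower in ITD00185, namely ERG12, MVD1, ERG20, ERG11, ERG26, ERG3, ERG4 and CYB5. They make up 24.2% of the 33, against 3.38% of all genes tested. No sterol gene was higher at both times, against 2.27% of all genes. The count was again 8 without ITD00185 48 h replicate 2, where ERG5 took the place of ERG4. It fell to 2, MVD1 and ERG3, without T73 96 h replicate 3, to 3 without ITD00185 96 h replicate 1 or 3 or T73 96 h replicate 1, to 4 without ITD00185 48 h replicate 3 or T73 96 h replicate 2, and to 5 without ITD00185 96 h replicate 2. It was 11 without ITD00185 48 h replicate 1, adding ERG1, HMG1 and ARE2. With single arrays left out the share ran from 6.06% to 33.3%, against 2.16% to 3.74% of all genes.

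The strain difference changed between 48 h and 96 h for 11 of 33 sterol genes, a share of 33.3% that lies below the 38% of all genes. Toward ITD00185 moved 6 of them and toward T73 5. All 4 genes that were higher in ITD00185 at 48 h were among the 5, with ERG28. With arrays scaled to one spread 3 and 2 passed (9.09% and 6.06%, against 13.4% and 8.79% of all genes). That scaling turned the median change over the sterol genes from 0.53 to -0.11 (0.20 and -0.05 over all genes).

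**Figure D3:**
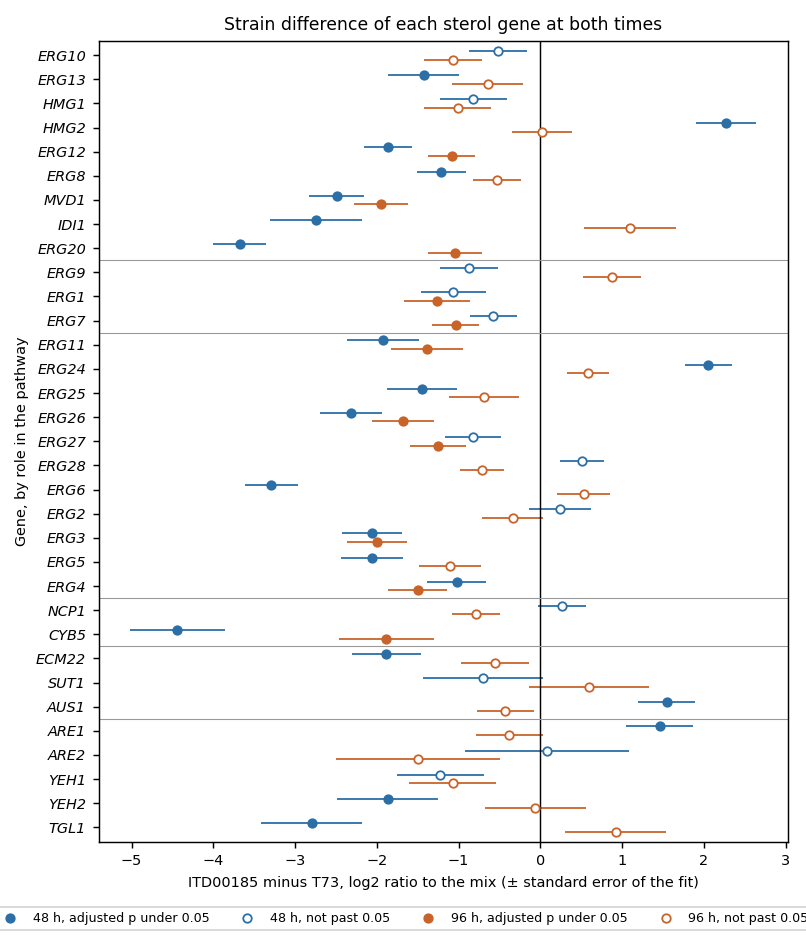
Difference of ITD00185 minus T73 in the log2 ratio for 33 sterol genes in order of role, at 48 h (blue) and 96 h (orange), with bars of 1 standard error of the fit and filled points for an adjusted p under 0.05. Filled points lie left of 0 except those of HMG2, ERG24, AUS1 and ARE1 at 48 h.

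In the mevalonate section 6 of 9 genes were lower in ITD00185 at 48 h and 1 was higher (66.7% and 11.1%, against 26.7% and 12.9% of all genes). At 96 h 3 were lower and 0 higher (33.3% lower, against 10.5%). MVD1 (YNR043W) encodes mevalonate pyrophosphate decarboxylase, which makes isopentenyl pyrophosphate. At 48 h its levels were -0.26, -1.31 and -0.06 on the ITD00185 arrays and 1.91, 2.04 and 1.90 on the T73 arrays. At 96 h they were -0.91, -0.24 and -0.71 against 1.34, 1.07 and 1.58. All 6 arrays of ITD00185 were thus below 0 and all 6 of T73 above 1. The difference was -2.49 ± 0.33 at 48 h (adjusted p 0.000492) and -1.95 ± 0.33 at 96 h (adjusted p 0.00314), or 5.62-fold and 3.87-fold lower. Its calls, and those of ERG3, held at both times under every setting tried and with each array left out.

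ERG20 (YJL167W), farnesyl pyrophosphate synthase, stands at the point where the sterol branch leaves the other isoprenoids. Its levels at 48 h were 0.35, 0.62 and 0.42 in ITD00185 and 4.22, 4.82 and 3.39 in T73. The groups were more than 2 log2 units apart at their nearest arrays. The difference was -3.68 ± 0.33 (adjusted p 4.8e-05), or 12.8-fold lower, and -2.32 with arrays scaled to one spread. By 96 h the levels were 0.95, 0.52 and 0.56 against 1.56, 1.87 and 1.73, still without overlap, and the difference had shrunk to -1.04 ± 0.33 (adjusted p 0.0431). That call was lost without any single array of 96 h and without ITD00185 48 h replicate 3 or T73 48 h replicate 1, at values from -1.18 to -0.96. The change of the difference was 2.64 ± 0.46 (adjusted p 0.00339), which became 0.80 and lost its call with scaled arrays (adjusted p 0.114).

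IDI1 (YPL117C), the isomerase that supplies dimethylallyl pyrophosphate, was lower at 48 h. Levels were -0.48, 1.49 and -0.27 in ITD00185 against 2.65, 3.69 and 2.64 in T73, and replicate 2 of ITD00185 was the highest of its group by more than 1 log2 unit. The difference was -2.75 ± 0.56 (adjusted p 0.00424). By 96 h the order had turned, with 0.89, 2.41 and 1.80 against 0.29, 1.16 and 0.35, but the groups overlapped and the difference of 1.10 ± 0.56 did not pass (adjusted p 0.175). The change between the times was 3.85 ± 0.80 (adjusted p 0.00619) and kept its call under every setting and with each array left out.

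The kinases of the section were lower at 48 h. ERG12 (YMR208W), mevalonate kinase, had levels of -0.71, -0.52 and -0.01 in ITD00185 against 1.02, 1.45 and 1.88 in T73, and at 96 h of -1.10, -0.48 and -0.74 against 0.40, 0.13 and 0.40. The strains did not overlap at either time. Its differences were -1.86 ± 0.29 (adjusted p 0.00109) and -1.09 ± 0.29 (adjusted p 0.0241), the later call being lost without ITD00185 96 h replicate 1 or 3 or T73 96 h replicate 1 or 3 at values from -1.10 to -0.92. ERG8 (YMR220W), phosphomevalonate kinase, had levels of -0.15, -0.73 and 0.34 against 0.86, 1.07 and 1.16 at 48 h. Again the groups were apart, by -1.21 ± 0.30 (adjusted p 0.00943), though scaling the arrays ended the call (-0.75, adjusted p 0.117). At 96 h the ERG8 difference of -0.53 ± 0.30 did not pass (adjusted p 0.207).

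Of the opening steps from acetyl-CoA ERG13 passed at 48 h and ERG10 at neither time, and the reductases differed from each other. ERG13 (YML126C), HMG-CoA synthase, had levels of 0.26, -0.86 and 0.55 in ITD00185 and 1.25, 1.66 and 1.32 in T73 at 48 h. The groups did not overlap and the difference was -1.42 ± 0.43 (adjusted p 0.0242). It was -1.003 without ITD00185 48 h replicate 2 (adjusted p 0.0571), -1.30 without T73 48 h replicate 2 (adjusted p 0.0731), -1.16 with centred arrays (adjusted p 0.0532) and -0.76 with scaled arrays (adjusted p 0.279). At 96 h it was -0.64 ± 0.43 (adjusted p 0.297). ERG10 (YPL028W), acetoacetyl-CoA thiolase, overlapped at 48 h (-0.52 ± 0.36, adjusted p 0.261). At 96 h its arrays were apart, at 0.71, 0.67 and 0.52 against 1.57, 1.88 and 1.65. The difference of -1.07 ± 0.36 narrowly missed the threshold (adjusted p 0.0527). It passed without ITD00185 48 h replicate 1 or 2 (adjusted p 0.0324 and 0.00559) and with scaled arrays (-1.54, adjusted p 0.0383). Of the 10 settings tried, 4 left it uncalled.

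HMG1 and HMG2 encode the isozymes of HMG-CoA reductase, the main control point of the pathway, and HMG2 is the isozyme degraded on demand and linked to growth with little oxygen. HMG2 (YLR450W) was higher in ITD00185 at 48 h. Its levels were 0.47, 1.25 and -0.27 against -1.59, -2.16 and -1.63. No array overlapped, and the difference was 2.27 ± 0.37 (adjusted p 0.00126), or 4.84-fold. By 96 h the levels were -0.71, -1.12 and -1.37 against -1.28, -1.17 and -0.83, an overlap, with a difference of 0.03 ± 0.37 (adjusted p 0.967). The change was -2.25 ± 0.52 (adjusted p 0.0095), a call kept under every setting and with each array left out. HMG1 (YML075C) had negative differences at both times, -0.82 ± 0.41 (adjusted p 0.132) and -1.01 ± 0.41 (adjusted p 0.0973), neither past the threshold. The first reached -1.30 without ITD00185 48 h replicate 1 (adjusted p 0.0225), and the second passed without that array or replicate 2 of the same group (adjusted p 0.0389 and 0.0152). HMG1 levels at 96 h were apart, at -1.48, -1.28 and -1.61 against -0.55, -0.475 and -0.31. The 96 h difference also passed with the arrays of 48 h left out of the model (adjusted p 0.0045), but not with scaled arrays (-0.86, adjusted p 0.155).

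The 3 genes that carry farnesyl pyrophosphate to lanosterol gave no call at 48 h, beside 39.5% of all genes called. At 96 h they gave 2 lower calls, beside 10.5% of all genes called lower. ERG1 (YGR175C), squalene epoxidase, the first step that uses oxygen, had levels of 0.13, -1.63 and -0.54 against 0.48, 0.18 and 0.50 at 48 h. The groups were apart but ITD00185 spread widely, and -1.06 ± 0.40 did not pass (adjusted p 0.0539), reaching -1.47 without ITD00185 48 h replicate 1 (adjusted p 0.0186). For 96 h, levels of -1.28, -0.64 and -1.29 against 0.38, -0.15 and 0.35 gave -1.26 ± 0.40 (adjusted p 0.0439). ERG7 (YHR072W), lanosterol synthase, overlapped at 48 h (-0.58 ± 0.29, adjusted p 0.125), and at 96 h stood at -0.68, -0.49 and -0.54 against 0.46, 0.25 and 0.69, a difference of -1.04 ± 0.29 (adjusted p 0.0258). Both 96 h calls depended on single arrays. That of ERG1 was lost without any array of 96 h, ITD00185 48 h replicate 3 or T73 48 h replicate 1 (-1.48 to -1.15) and with scaled arrays (-1.31, adjusted p 0.0537), and that of ERG7 without any array of 96 h other than T73 replicate 2 (-1.08 to -0.92).

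ERG9 (YHR190W), squalene synthase, the committed step toward sterol, turned its order between the times. At 48 h its levels were -0.02, 0.16 and 0.58 in ITD00185 and 0.66, 1.98 and 0.68 in T73, and at 96 h 0.79, 1.28 and 1.24 against 0.44, 0.04 and 0.20. ITD00185 was below T73 on all arrays of 48 h and above it on all arrays of 96 h. Neither difference passed (-0.87 ± 0.36, adjusted p 0.0715, and 0.88 ± 0.36, adjusted p 0.0954), but their change of 1.74 ± 0.50 did (adjusted p 0.022). It became 0.96 with scaled arrays (adjusted p 0.118) and was lost without ITD00185 48 h replicate 1, ITD00185 96 h replicate 2 or 3, or T73 96 h replicate 3, at 1.61 to 1.73. The 48 h difference passed without T73 48 h replicate 3 (-1.08, adjusted p 0.0444), and that of 96 h without T73 48 h replicate 2 (adjusted p 0.029).

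In the late sterol section 7 of 11 genes were lower and 1 was higher at 48 h (63.6% and 9.09%, against 26.7% and 12.9% of all genes). At 96 h 5 were lower and 0 higher (45.5% lower, against 10.5%). ERG3 (YLR056W), the desaturase that acts on the sterol ring near the end of the pathway, gave the steadiest difference. Its levels were -1.69, -2.96 and -1.71 in ITD00185 against -0.16, -0.44 and 0.42 in T73 at 48 h, and -2.39, -1.78 and -2.10 against -0.03, -0.24 and 0.01 at 96 h. Each ITD00185 array lay more than 1 log2 unit below each T73 array of its time. The differences were -2.06 ± 0.37 (adjusted p 0.00207) and -2.002 ± 0.37 (adjusted p 0.00424), both close to 4-fold, and their change was 0.06 ± 0.52 (adjusted p 0.937).

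ERG6 (YML008C), the sterol methyltransferase that marks the fungal branch away from cholesterol, differed at 48 h and not at 96 h. At 48 h its levels were 1.32, 1.98 and 1.28 in ITD00185 and 4.52, 5.36 and 4.57 in T73. By 96 h they were 2.26, 3.202 and 2.60 against 2.10, 2.10 and 2.27, with the groups overlapping narrowly. The first difference was -3.29 ± 0.33 (adjusted p 9.0e-05), or 9.77-fold lower, and -1.46 with scaled arrays. The second was 0.53 ± 0.33 (adjusted p 0.253), a sign that scaling turned (-0.25). Their change was 3.82 ± 0.46 (adjusted p 0.00141), 1.21 with scaled arrays (adjusted p 0.0236) and 1.14 after quantile normalization, where it missed the threshold (adjusted p 0.0677).

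ERG11 and ERG5 encode the cytochromes P450 of the pathway, lanosterol demethylase and the desaturase of the side chain. For ERG11 (YHR007C) the levels at 48 h were 0.37, -1.67 and -0.26 against 1.29, 1.43 and 1.49, and at 96 h -1.36, -0.44 and -1.01 against 0.50, 0.23 and 0.63. The strains were apart at both times. The differences were -1.92 ± 0.44 (adjusted p 0.0072, and 0.0629 at -1.40 with scaled arrays) and -1.39 ± 0.44 (adjusted p 0.044). The 96 h call of ERG11 was lost without any array of that time, without ITD00185 48 h replicate 3 and without T73 48 h replicate 1 or 2, at -1.64 to -1.18. ERG5 (YMR015C) had levels of -1.21, -2.51 and -1.29 against -0.05, 0.79 and 0.41 at 48 h, apart by -2.06 ± 0.38 (adjusted p 0.00242). At 96 h, -2.19, -1.46 and -1.97 against -0.66, -1.02 and -0.61 were again apart, but -1.11 ± 0.38 narrowly missed the threshold (adjusted p 0.0552) and passed without ITD00185 48 h replicate 2 (adjusted p 0.0131).

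Of the demethylation complex that follows, ERG25 to ERG28, 2 of 4 genes were lower at 48 h, against 26.7% of all genes. At 96 h 2 of the 4 were lower, against 10.5%, and all 4 differences of the complex were below 0. ERG26 (YGL001C), its sterol dehydrogenase, had levels of -0.50, -1.50 and -0.41 against 0.78, 2.14 and 1.64 at 48 h and -0.86, -0.58 and -0.79 against 0.95, 0.67 and 1.18 at 96 h. All ITD00185 arrays were below 0 and all T73 arrays above 0. The differences were -2.32 ± 0.38 (adjusted p 0.00137) and -1.68 ± 0.38 (adjusted p 0.0112), the latter at -1.55 without T73 96 h replicate 3 (adjusted p 0.0503). ERG25 (YGR060W), the methyl oxidase, had 0.96, -0.41 and -0.03 against 1.64, 2.31 and 0.92 at 48 h, an overlap between 1 array of each strain. Its difference of -1.45 ± 0.43 passed (adjusted p 0.0213) but not without ITD00185 48 h replicate 2 (-1.16, adjusted p 0.0504), ITD00185 48 h replicate 3 (-1.34, adjusted p 0.0688) or T73 48 h replicate 2 (-1.11, adjusted p 0.0799), nor with scaled arrays (-0.69, adjusted p 0.279). At 96 h it was -0.69 ± 0.43 (adjusted p 0.254).

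ERG27 (YLR100W), the keto reductase of that complex, overlapped at 48 h (-0.82 ± 0.34, adjusted p 0.0754, and -1.08 with adjusted p 0.0428 without T73 48 h replicate 1). At 96 h its levels were -0.33, 0.13 and -0.14 against 1.11, 1.03 and 1.27. These were well apart, by -1.25 ± 0.34 (adjusted p 0.0258), with the call lost without any array of 96 h at -1.37 to -1.14. ERG28 (YER044C), the scaffold that holds the complex at the endoplasmic reticulum, passed at neither time (0.51 ± 0.27, adjusted p 0.149, and -0.71 ± 0.27, adjusted p 0.0794). At 96 h its levels of -0.06, 0.01 and 0.06 lay below 0.77, 0.47 and 0.89, and the difference passed without ITD00185 48 h replicate 2 (adjusted p 0.049). Its change of -1.22 ± 0.38 passed (adjusted p 0.0297), but 9 of the 12 arrays could each end that call when left out, at -1.25 to -1.02.

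ERG24 (YNL280C), the sterol reductase that acts directly after ERG11, went against the rest of the section at 48 h. It had 0.57 and -0.04 in ITD00185, with no value on replicate 2, against -1.70, -1.98 and -1.69 in T73. Even with that array missing the groups were far apart, and the difference was 2.06 ± 0.29 (adjusted p 0.000797), or 4.16-fold higher. Levels at 96 h of -0.44, -0.86 and -1.03 against -1.30, -1.45 and -1.34 did not overlap either, but 0.59 ± 0.26 did not pass (adjusted p 0.12), while 0.92 with scaled arrays did (adjusted p 0.0427). The change was -1.47 ± 0.38 (adjusted p 0.0169), lost with scaled arrays (-1.04, adjusted p 0.1) and without ITD00185 48 h replicate 1 (-1.16, adjusted p 0.0661).

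ERG4 (YGL012W), the reductase of the last step, had 0.97, -0.36 and 0.76 against 1.47, 1.00 and 1.96 at 48 h, and 0.04, -0.14 and -0.21 against 1.55, 1.15 and 1.49 at 96 h. The gap between the strains was narrow at 48 h and wide at 96 h. The first difference of -1.02 ± 0.36 (adjusted p 0.0429) was lost when any array other than ITD00185 48 h replicate 1 or T73 48 h replicate 2 was left out (-1.17 to -0.61), and was -0.75 with centred and -0.21 with scaled arrays. The second was -1.50 ± 0.36 (adjusted p 0.0147) and was lost without ITD00185 96 h replicate 2 or 3 or T73 96 h replicate 1 or 3 (-1.48 to -1.42). ERG2 (YMR202W), the sterol isomerase, overlapped at both times, with differences of 0.24 ± 0.38 (adjusted p 0.632) and -0.34 ± 0.38 (adjusted p 0.534).

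Of the electron donors CYB5 was lower at both times and NCP1 passed at neither, though at 96 h ITD00185 was below T73 for both. CYB5 (YNL111C), cytochrome b5, passes electrons to sterol and lipid desaturases and had the largest difference at 48 h among the 33. Its levels were -0.70, -1.52 and -0.67 in ITD00185 against 2.60, 2.77 and 5.05 in T73, so that T73 replicate 3 stood more than 2 log2 units above the others. The difference was -4.44 ± 0.58 (adjusted p 0.000454), or 21.7-fold lower, and -3.65 without that array. At 96 h, -0.89, 0.37 and -0.63 against 1.60, 1.48 and 1.42 remained apart, by -1.88 ± 0.58 (adjusted p 0.0398), a call lost without any array of 96 h other than ITD00185 replicate 2 and without ITD00185 48 h replicate 3 (-1.92 to -1.63). The change of 2.55 ± 0.82 (adjusted p 0.0324) was lost with scaled arrays (1.41, adjusted p 0.184) and without each of 7 arrays (2.18 to 2.70). NCP1 (YHR042W), the reductase that feeds the P450 enzymes, gave 0.26 ± 0.30 at 48 h (adjusted p 0.497) and -0.79 ± 0.30 at 96 h (adjusted p 0.0783). At 96 h its levels of -0.77, -1.12 and -0.68 in ITD00185 lay below -0.03, -0.40 and 0.23 in T73. That difference passed without ITD00185 48 h replicate 2 (adjusted p 0.0241) and with the arrays of 48 h left out of the model (adjusted p 0.0279). It did not pass with scaled arrays (-0.75, adjusted p 0.1155).

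Among the genes of regulation and uptake ECM22 was lower and AUS1 higher at 48 h, and neither passed at 96 h. ECM22 (YLR228C), the activator related to UPC2, had levels of -2.06, -0.67 and -0.41 in ITD00185 against 0.46, 1.01 and 1.05 in T73. The groups lay on opposite sides of 0, and the difference was -1.88 ± 0.42 (adjusted p 0.00621), kept under every setting and with each array left out. At 96 h it was -0.55 ± 0.42 (adjusted p 0.355). AUS1 (YOR011W), a transporter that imports sterol in cells without oxygen, had 0.12, -1.38 and -0.20 against -2.17, -2.14 and -1.81. ITD00185 was above T73, by 1.55 ± 0.35 (adjusted p 0.0067, and 0.0614 with the arrays of 96 h left out of the model), while at 96 h it was -0.43 ± 0.35 (adjusted p 0.39). The change of AUS1 was -1.97 ± 0.49 (adjusted p 0.0133), and -1.34 with scaled arrays (adjusted p 0.0868). SUT1 (YGL162W), a regulator that promotes sterol uptake, ran from -0.06 to 2.32 in ITD00185 and from 0.77 to 3.66 in T73 at 48 h and did not pass at either time (-0.70 ± 0.73, adjusted p 0.463, and 0.59 ± 0.73, adjusted p 0.58).

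Of the genes that store and release sterol, 2 were lower (40%, against 26.7% of all genes) and 1 was higher (20%, against 12.9%) at 48 h. None of the 5 passed at 96 h, against 22.5% of all genes. TGL1 (YKL140W), a steryl ester hydrolase of lipid droplets, had levels of -0.13, 1.53 and 0.44 in ITD00185 and 2.53, 4.86 and 2.85 in T73. The groups did not overlap, with a difference of -2.80 ± 0.61 (adjusted p 0.00583) that was -1.67 with scaled arrays. The 96 h values were 0.47, 1.65 and 1.65 against 0.58, 0.49 and -0.05, and 0.92 ± 0.61 did not pass (adjusted p 0.29). The change of 3.72 ± 0.87 (adjusted p 0.0101) kept its call under every setting and with each array left out. YEH2 (YLR020C), a hydrolase of the plasma membrane, was 0.24, 1.95 and 0.17 against 3.23, 3.45 and 1.28 at 48 h, with an overlap. Its difference of -1.87 ± 0.62 passed (adjusted p 0.033), but not without ITD00185 48 h replicate 1 or 3 or T73 48 h replicate 1 or 2 (-1.59 to -1.47) and not with scaled arrays (-0.90, adjusted p 0.206). The YEH2 difference of 96 h was -0.06 ± 0.62 (adjusted p 0.953). YEH1 (YLL012W), its relative in lipid droplets, gave -1.22 ± 0.53 (adjusted p 0.086) and -1.07 ± 0.53 (adjusted p 0.162), the first reaching -1.88 without ITD00185 48 h replicate 1 (adjusted p 0.0105). At 96 h the YEH1 arrays of the strains did not overlap. That difference passed with the arrays of 48 h left out of the model (adjusted p 0.0226) and with array weights (-1.33, adjusted p 0.000758).

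The sterol acyltransferases that make steryl esters differed in pattern. ARE1 (YCR048W), the isozyme linked to growth with little oxygen, had 0.35, -1.45 and -0.29 against -1.72, -2.38 and -1.68 at 48 h. ITD00185 was above T73 on all arrays, by 1.46 ± 0.41 (adjusted p 0.017), and the call was lost without ITD00185 48 h replicate 1 or 3 or T73 48 h replicate 2 (1.05 to 1.37) and with scaled arrays (1.16, adjusted p 0.08). At 96 h the ARE1 difference was -0.38 ± 0.41 (adjusted p 0.52), and the change of -1.84 ± 0.58 (adjusted p 0.0298) became -1.26 with scaled arrays (adjusted p 0.153) and was lost without each of 7 arrays (-1.86 to -1.43). ARE2 (YNR019W), the main isozyme in aerobic cells, had 3.60, -1.45 and -1.11 against 0.48, 0.18 and 0.13. Its first value stood apart from every other ITD00185 value of the gene. With it the difference was 0.09 ± 1.00 (adjusted p 0.953), and without that array -1.54 ± 0.27 (adjusted p 0.0045). Levels at 96 h of -1.02, -1.09 and -1.60 against 0.25, 0.11 and 0.43 were apart by -1.50 ± 1.00, which did not pass (adjusted p 0.29) and which passed at the same size without ITD00185 48 h replicate 1 (adjusted p 0.00302).

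**Figure D4:**
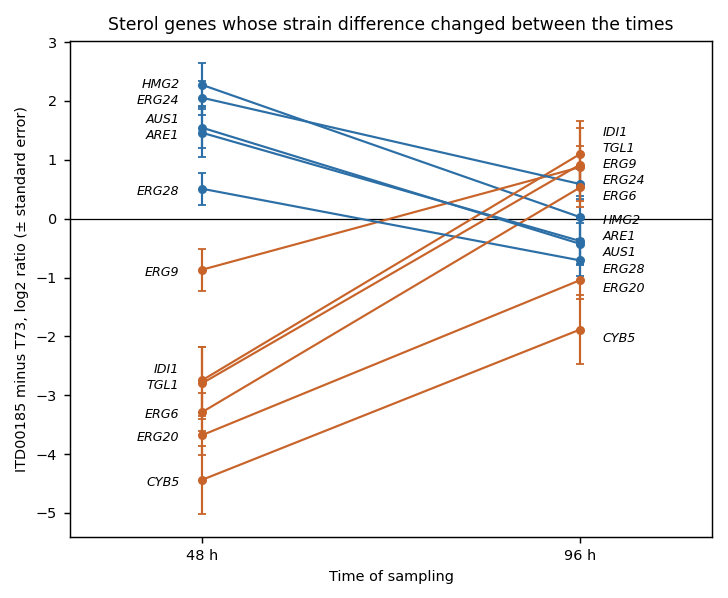
Difference of ITD00185 minus T73 in the log2 ratio at 48 h and at 96 h for the 11 sterol genes whose difference changed between the times, with bars of 1 standard error of the fit, orange where it rose and blue where it fell. IDI1, TGL1 and ERG6 went from -2.75, -2.80 and -3.29 to values above 0 that did not pass at 96 h, whereas ERG20 and CYB5 stayed below 0.

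Between the times the levels can only be set side by side, since the mixes of 48 h and 96 h are different references. In T73 the levels of ERG20, ERG6, CYB5, IDI1 and TGL1 were all above 2.5 on each array of 48 h and at most 2.27 on each array of 96 h. In ITD00185 the levels of ERG20 stayed within 0.35 to 0.95 over both times. The median level of the 23 enzymes (22 with a value on ITD00185 48 h replicate 2) was lower on every ITD00185 array than on any T73 array of its time. It ran from -0.46 to 0.26 in ITD00185 against 0.78 to 1.09 in T73 at 48 h, and from -0.53 to -0.14 against 0.40 to 0.69 at 96 h. The median of all genes on the same arrays ran from -0.01 to 0.08 and from 0.26 to 0.44 at 48 h, and from -0.07 to 0.05 and from -0.07 to -0.02 at 96 h.

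Genes of sterol transport were counted beside the pathway, and no test compared the lists. Of 15 tested, 6 were lower (40%, against 26.7% of all genes) and 2 higher (13.3%, against 12.9%) at 48 h, with a median of -0.64 against -0.32 for all genes. At 96 h 1 was lower (6.67%, against 10.5%) and 6 were higher (40%, against 12%), with a median of 1.09 against -0.01. NPC2 (YDL046W), a vacuolar sterol carrier, differed by 2.07 ± 0.36 at 48 h (adjusted p 0.002) and by -0.29 ± 0.36 at 96 h (adjusted p 0.588). YSP1 (YHR155W) and YSP2 (YDR326C), sterol transfer proteins of membrane contact sites, were lower at 48 h by -3.82 ± 0.66 (adjusted p 0.00229) and -3.79 ± 0.68 (adjusted p 0.00276), each with 1 array missing. At 96 h YSP1 was higher by 2.16 ± 0.59 (adjusted p 0.0276) and LAM5 (YFL042C), of the same family, by 1.57 ± 0.31 (adjusted p 0.00628).

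Of 9 genes listed for sterol uptake and oxygen, only some of them regulators, 1 was lower and 1 higher at 48 h (22.2% called, against 39.5% of all genes). At 96 h 1 was lower and 0 higher (11.1%, against 22.5%). The lower gene at 48 h was ROX1 (YPR065W), the repressor of hypoxic genes, with -1.60, -0.07 and -0.79 in ITD00185 against 7.90, 6.68 and 4.93 in T73. The groups were far apart (-7.33 ± 0.69, adjusted p 6.0e-05), and at 96 h the difference was 1.51 ± 0.69 (adjusted p 0.131). PDR11 (YIL013C), the other anaerobic sterol importer, was higher at 48 h by 3.17 ± 0.71 (adjusted p 0.00628). Its levels were -0.72, 2.61 and -0.63 in ITD00185 against -2.85, -3.03 and -2.36 in T73. ITD00185 replicate 2 stood far above the rest of its group and raised the size of the PDR11 difference. CBR1 (YIL043C), which reduces cytochrome b5, was lower at 96 h by -1.35 ± 0.38 (adjusted p 0.028).

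Among 10 tested genes of the isoprenoid branches 2 were lower and 2 higher at 48 h (40% called, near the 39.5% of all genes), and 0 lower and 1 higher at 96 h (10%, against 22.5%). The farnesyltransferase subunits RAM2 (YKL019W) and RAM1 (YDL090C) were higher at 48 h by 1.64 ± 0.34 (adjusted p 0.00418) and 1.08 ± 0.29 (adjusted p 0.0143). RER2 (YBR002C), which makes dolichol, was lower by -1.58 ± 0.43 (adjusted p 0.0144). MOD5 (YOR274W), which modifies transfer RNA with dimethylallyl pyrophosphate, was lower at 48 h by -0.95 ± 0.32 (adjusted p 0.0344) and higher at 96 h by 1.09 ± 0.32 (adjusted p 0.0321). Of 7 genes for reductase stability 0 were lower and 1 was higher at each time (14.3% called, against 39.5% and 22.5% of all genes), CUE1 (YMR264W) at 48 h (0.77 ± 0.23, adjusted p 0.0245) and HRD3 (YLR207W) at 96 h (3.91 ± 0.79, adjusted p 0.00687), both parts of the degradation machinery of the endoplasmic reticulum. SAY1, which removes acetyl groups from sterols, passed at neither time, and ATF2, which adds them, had too few values.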

How the data were processed

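The authors deposited a table of log2 ratios, with 1 value per probe and array for 6246 probes. Scanning, background correction, filtering and normalization are not given in the sources used here, and neither is the base, read as 2 because values at the extremes lie near the full range of a scanner with that base. Array medians and spreads differed in the deposited values, and whether they had been normalized is unknown. Probes were matched to the S288C gene table (R64), 5753 by systematic name, 34 by synonym and 459 not at all, and probes of a gene were averaged. Genes needed values on 2 arrays in each group. A model of 4 group means was fitted with limma 3.58.1 in R 4.3.3 (lmFit, eBayes, 8 residual and 3.16 prior degrees of freedom), two-sided, with Benjamini-Hochberg adjustment over all 5474 genes and a threshold of 0.05, after the procedure was tested on simulated data. Precision is limited by 3 arrays per group. The labels' biological replicates are not said to be separate cultures. The members and lists were chosen with earlier results of these data known. All 34 members are named, and of the other lists up to 4 called genes, smallest adjusted p first. The strain carried Cy5 on every array, so no dye exchange was available. The alternatives were centring, scaling, quantile normalization, fits of 6 arrays, array weights, extreme values left out, stricter and looser filters, a robust prior, a replicate block and leaving out each array.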

Additional observations from a re-analysis of the deposited data

Results flagged for a closer look

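The strain difference was tested for a change from 48 h to 96 h, and 11 sterol genes passed, beside 38% of all genes. It rose for IDI1 (3.85), ERG6 (3.82), TGL1 (3.72), ERG20 (2.64), CYB5 (2.55) and ERG9 (1.74), in units of log2. It fell for HMG2 (-2.25), AUS1 (-1.97), ARE1 (-1.84), ERG24 (-1.47) and ERG28 (-1.22). Of these, HMG2, IDI1 and TGL1 kept their calls under every setting tried and with each array left out.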

How the results depend on the processing

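Counts of sterol genes called lower and higher at 48 h, 17 and 4, became 11 lower both after scaling and after quantile normalization, and 11 and 2 in a fit of the 6 arrays of 48 h. The lower share of all genes, 26.7%, became 13.1%, 12.5% and 9.72% in the same order. At 96 h, 11 lower and 0 higher became 18 and 1 with the 6 arrays of 96 h and 24 and 5 with array weights, while 1 was higher with scaled arrays and 1 with the replicate block. Over all genes 10.5% lower and 12% higher became 22.2% and 22.9% with the 6 arrays, and 31.9% and 32.8% with array weights. The change, 5 down and 6 up, became 2 and 3 after scaling, 2 and 2 after quantile normalization, and 10 down with array weights. Over all genes 13.6% down and 24.4% up became 8.79% and 13.4% after scaling, and 9.77% and 13% after quantile normalization. With array weights 30.3% of the sterol genes were down, near the 29.3% of all genes. The count lower at both times, 8 (24.2%, against 3.38% of all genes), became 15 with array weights (45.5%, against 7.09%). With single arrays left out the counts ran from 14 to 20 lower and 3 to 4 higher at 48 h, 2 to 16 lower and 0 to 1 higher at 96 h, 2 to 7 down and 4 to 7 up for the change, and 2 to 11 lower at both times. The lower share of all genes then ran from 17.8% to 32% at 48 h and from 4.82% to 16% at 96 h. For the change 6.34% to 23.1% of all genes were down and 16.8% to 29.9% up. ARE2 at 48 h reversed from 0.09 to -1.54 without ITD00185 48 h replicate 1, and over all single arrays left out it ran from -1.54 to 0.98. Of 21 calls at 48 h 13 held under all settings and with each array left out, of 11 at 96 h 2, and of 11 changes 3. The median change over the sterol genes, 0.53, became -0.11 after scaling, -0.17 after quantile normalization, -0.04 with array weights and -0.04 without ITD00185 48 h replicate 2. Over all genes the calls at 48 h were 1459 lower and 705 higher, and 1120 and 1001 with centred arrays. The labels tie a replicate number to no shared batch, and the arrays were not treated as paired, since 6 of 18 same-numbered pairs had deviations correlated above 0.1. However, 9 of 12 arrays correlated best with their own number, a hint of pairing from the data. With the replicate block 17 were lower and 4 higher at 48 h (28.9% and 14.4% of all genes) and 13 and 1 at 96 h (12.3% and 14%). For the change 6 were down and 6 up with it (15.6% and 25.5% of all genes). At 96 h the block ended the call of ERG11 (adjusted p 0.0529), leaving 7 genes lower at both times, and ERG10, IDI1, ERG28 and NCP1 passed with it. The cause of these shifts was not tested.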
